A study of Mus musculus with 6 samples.

Results

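The genes described here are the 6 genes that encode the principal ligands, the decoy receptor and the signalling receptors through which osteoclasts are made: Tnfsf11, Tnfrsf11b, Tnfrsf11a, Csf1, Il34 and Csf1r. They were given by name and matched by symbol, and all 6 were found among the 55487 gene IDs of the deposited count table and among the 26596 genes that could be tested. RNA from the rib cages of 6 mouse embryos, collected at 16.5 dpc, was sequenced by RNA-Seq. The paper states that it chose the rib cage because tissue outside the skeleton could be dissected away from it efficiently. The 3 controls (E420, E434 and E435) are labelled wild type, and per the study's methods control animals were littermates without the Col2-cre transgene. The 3 mutants (E423, E433 and E440) have the genotype Col2-cre;Foxc1-/-;Foxc2-/-. In them both forkhead transcription factor genes were deleted by a Cre recombinase expressed from a type II collagen promoter, so that only cells that had expressed it, chondrocyte progenitors and their descendants, lost the genes. The mice were kept on a mixed background, and the sources used here do not say which of these 6 embryos shared a litter.

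Osteoclasts, the cells that resorb bone and calcified cartilage, arise from blood-borne precursors of the macrophage lineage. The precursors need M-CSF (encoded by Csf1) or interleukin-34 (Il34), which both bind the receptor tyrosine kinase encoded by Csf1r and sustain survival and proliferation, and then RANKL (Tnfsf11), which binds RANK (Tnfrsf11a) and drives differentiation. Osteoprotegerin (Tnfrsf11b) is a secreted receptor that captures RANKL and keeps it from RANK, and in the fetal skeleton both RANKL and its decoy are made by chondrocytes and cells of the osteoblast lineage.

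The sequences just upstream of the RANKL and RANK genes are shown because these are the ligand and the receptor whose levels differed most between the groups at the RANKL and RANK step. They were taken from RefSeq (GRCm38.p6), each is 250 bases long, ends at the base before the transcription start and reads 5′ to 3′ on the strand of its gene. Capitals mark a match to a searched motif. The first lies at chr14:78308044-78308293 on the minus strand and the second at chr1:105780473-105780722 on the plus strand.
Tnfsf11 promoter: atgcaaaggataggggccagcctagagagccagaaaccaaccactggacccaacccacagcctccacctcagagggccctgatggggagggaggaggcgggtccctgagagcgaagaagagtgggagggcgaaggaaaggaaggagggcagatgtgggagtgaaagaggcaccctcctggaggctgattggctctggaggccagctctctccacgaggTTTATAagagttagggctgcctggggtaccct
Tnfrsf11a promoter: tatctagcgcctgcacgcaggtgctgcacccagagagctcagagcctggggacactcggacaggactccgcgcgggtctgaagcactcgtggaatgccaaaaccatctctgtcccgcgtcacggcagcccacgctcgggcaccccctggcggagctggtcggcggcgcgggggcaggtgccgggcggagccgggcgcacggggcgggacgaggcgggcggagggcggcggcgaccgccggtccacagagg

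A promoter was given for 3 of the 6 genes, the third being Csf1. Each was searched for a core forkhead motif (TGTTTA or its complement TAAACA), a core RUNX motif (TGTGGT or ACCACA) and a TATA box core (TATAAA or TTTATA). The only match in the 3 promoters was the TTTATA of Tnfsf11, which starts 32 bases before the transcription start. It is the TATA box core in reverse orientation relative to the gene. Of all 32851 mouse promoters of this length, 12% hold the forkhead core, 14% the RUNX core and 12.4% the TATA box core.

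The libraries held between 37853988 and 47794799 counts, and both targeted genes were lower in every mutant than in any control, Foxc1 with a log2 fold change of -2.34 ± 0.452 (SE) and Foxc2 with one of -1.99 ± 0.388. Libraries differed within groups as well. Control E434 and mutant E433 stood apart from the others of their group in cartilage genes: the summed level of 13 early chondrocyte genes was 27566 CPM in E434 and 10268 CPM in E433, against 709 to 2126 CPM in the other 4 libraries (CPM, the count scaled to library size by the TMM method). Transcripts of 10 keratinocyte genes, which mark skin, summed to 27532 CPM in E423 and 27668 CPM in E440, both mutants, but to 18.2 CPM in control E434, with the other 3 libraries between 3209 and 6309 CPM. Liver genes were highest in mutant E433, at 774 CPM against 58.4 to 88.7 CPM elsewhere. In a chi-square comparison of fragment counts, E423 and E440 differed least (2.27 per degree of freedom, where sampling alone gives about 1), E420 and E435 next (5.42), and every other pair of one group by 85 or more, so each library was counted as a sample of its own and the values of the 6 genes are also given without the libraries that stand apart. Transcripts of bone, cartilage and osteoclasts were detected in all 6 libraries. Type I collagen (Col1a1) was at 7152 to 14932 CPM and type II collagen (Col2a1) at 162 to 14427 CPM. Cathepsin K (Ctsk), a protease of osteoclasts, was at 84.0 to 230.2 CPM, but other osteoclast genes were far lower in E433, as described below.

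The 6 genes covered a wide range of levels, and the receptor and ligand of the M-CSF pair stood far above those of the RANKL pair. Per kilobase of exon and as the mean of the 6 libraries, Csf1r was at 10.3, Csf1 at 7.24, Tnfrsf11b at 3.69, Il34 at 2.32, Tnfrsf11a at 1.24 and Tnfsf11 at 1.16 CPM per kilobase. The order of Csf1r over Csf1, and of Csf1 over Tnfrsf11b, held in each library. Tnfrsf11b and Il34 overlapped, at 2.36 to 5.90 and 0.450 to 5.22 CPM per kilobase, as did Il34 and Tnfrsf11a. Tnfrsf11a and Tnfsf11 did not differ beyond their spread over all 6 libraries: Tnfsf11 was at 1.63 to 2.13 CPM per kilobase in controls and 0.384 to 0.645 in mutants, and Tnfrsf11a at 1.41 to 1.70 in controls and 0.841 to 1.18 in mutants. In each control, then, the RANKL gene was close to or above its receptor per kilobase, and in each mutant it was below it.

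**Figure D1:**
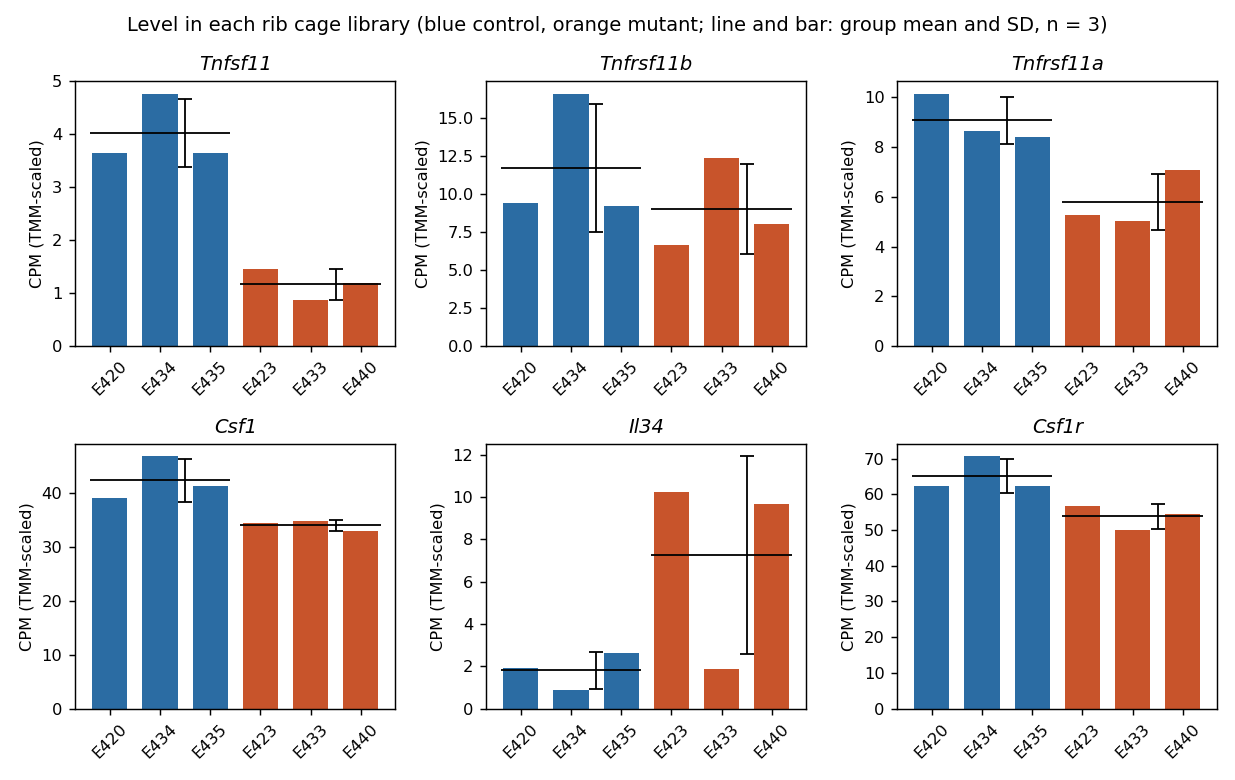
Level of each of the 6 genes in CPM after TMM scaling (y axis, from 0) in each of the 6 libraries (x axis); bars are single libraries, the line is the group mean and the error bar its SD (n = 3). Tnfsf11, Tnfrsf11a, Csf1 and Csf1r were lower in each mutant than in any control, Tnfrsf11b overlapped, and Il34 was high in mutants E423 and E440 alone.

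Of the 6 genes, 4 were lower in every mutant than in every control (Tnfsf11, Tnfrsf11a, Csf1 and Csf1r), where 8.21% of all genes tested were. None of the 6 was higher in every mutant, where 6.81% of all genes were, and Tnfrsf11b and Il34 overlapped between the groups. By edgeR's quasi-likelihood test with Benjamini-Hochberg adjustment over all genes, 0 of the 6 passed both limits (adjusted p-value under 0.1, log2 fold change of 1 or more either way), which 17 genes in all (0.0639%) passed. At an unadjusted p-value under 0.05, which 10.6% of all genes reached, there were 5 of the 6, Tnfrsf11b being the exception: 4 were lower, as 4.7% of all genes were, and Il34 was higher, as 5.9% were. DESeq2's Wald test called 2 of the 6, Tnfsf11 and Il34, where it called 2.18% of the genes it gave an adjusted p-value (0.557% as lower and 1.62% as higher). The median log2 fold change of the 6 genes was -0.35, beside 0.01 over all genes tested. These p-values measure the spread between the embryos sequenced. In RNA from tissue of many cell types, a lower level from fewer cells of a type cannot be told apart from less RNA per cell.

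RANKL, the ligand that drives osteoclast differentiation, showed the largest difference toward lower levels among the 6 genes. Tnfsf11 (ENSMUSG00000022015.8, GRCm38 chr14:78277445-78308043, minus strand) was at 3.64 CPM in control E420, 4.77 in E434 and 3.65 in E435, and at 1.44 CPM in mutant E423, 0.858 in E433 and 1.19 in E440, from 143 to 216 counts per control and 37 to 60 per mutant. Each end of a pair was counted, and the RSEM expected counts, per fragment, were 72 to 107 per control and 18 to 31 per mutant. With these the log2 fold change was -1.76, with an edgeR adjusted p-value of 0.167. The mutants lay below the controls by more than the spread of either group, with means of 4.02 ± 0.647 and 1.16 ± 0.293 CPM (SD, n = 3). The log2 fold change was -1.78 ± 0.242 (SE), a level 71.0% lower, with an unadjusted p-value of 0.000212 and an adjusted p-value of 0.145 in edgeR, which missed the limit, and of 1.02e-07 in DESeq2. Without the cartilage-rich libraries E434 and E433 the log2 fold change was -1.47 and passed both limits, as 8.25% of all genes then did, while without E423 and E440 it was -2.22 and with the early chondrocyte level as a covariate it was -1.80. Leaving out mutant E433 alone brought the adjusted p-value to 0.0191, with a log2 fold change of -1.60, where 4.21% of all genes were called.

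Osteoprotegerin, the decoy, did not separate the groups. Tnfrsf11b (ENSMUSG00000063727.3, chr15:54250619-54278484, minus strand) was at 9.42 CPM in E420, 16.6 in E434 and 9.21 in E435, and at 6.66 CPM in mutant E423, 12.4 in E433 and 8.04 in E440. Its highest control and its highest mutant were the cartilage-rich libraries, and mutant E433 was above controls E420 and E435. The log2 fold change was -0.38 ± 0.322 (SE), with an edgeR adjusted p-value of 0.706. Its size rested on those libraries, at -0.04 without control E434, -0.67 without mutant E433 and -0.34 without both, and it turned to 0.16 with the keratinocyte level as a covariate and to 0.08 without E423 and E440. The order of the 6 libraries by Tnfrsf11b was the order by the early chondrocyte list down to the lowest pair: E434, E433, E420, E435, then E440 and E423 for Tnfrsf11b and E423 and E440 for the list's mean level. With the early chondrocyte level as a covariate the log2 fold change was -0.07.

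The ratio of ligand to decoy was therefore lower in mutants, and on group means this came from the ligand. The decoy's log2 fold change of -0.38 was also toward lower levels, which by itself would raise the ratio. Per kilobase, Tnfsf11 stood at 0.487 of Tnfrsf11b in control E420, 0.361 in E434 and 0.499 in E435, and at 0.273 in mutant E423, 0.0873 in E433 and 0.187 in E440. The decoy was the more abundant transcript in all 6 libraries, by 2.0 to 2.77 times in controls and 3.66 to 11.5 times in mutants, and the groups did not overlap. On the log2 scale the ratio was -1.17 ± 0.260 in controls and -2.60 ± 0.837 in mutants (SD, n = 3), a difference of -1.43, or 2.7-fold between the geometric means. The exact permutation test, 2-sided, gave p = 0.1, the smallest that 3 against 3 can give, and 0.45 after adjustment over the 9 ratios and differences tested. Leaving out each library in turn gave differences between -1.80 and -0.98, and without both E434 and E433 it was -1.13, while on E420, E434, E435 and E433 alone it was -2.35. Mutant E433 gave the lowest ratio of all: it had the lowest RANKL level and, among mutants, the highest osteoprotegerin level.

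**Figure D2:**
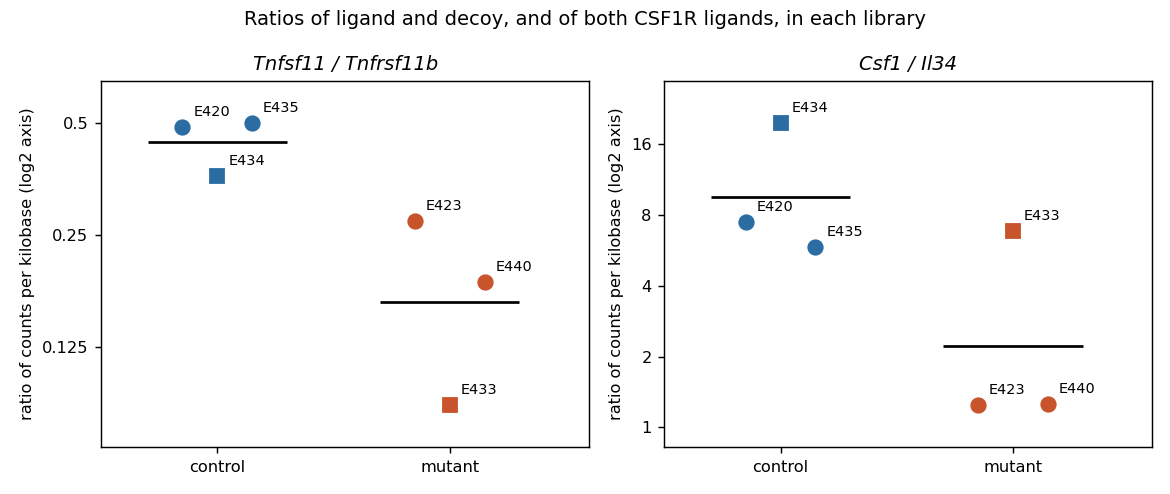
Ratio of counts per kilobase of Tnfsf11 to Tnfrsf11b (left) and of Csf1 to Il34 (right) in each library, on log2 axes; squares are the cartilage-rich libraries E434 and E433, and lines are geometric means. The left groups do not overlap (0.361 to 0.499 against 0.0873 to 0.273), while mutant E433, at 6.86, lies among the controls on the right.

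RANK, the signalling receptor for RANKL on osteoclast precursors and osteoclasts, was also lower in each mutant, by a smaller step. Tnfrsf11a (ENSMUSG00000026321.7, chr1:105780718-105847981, plus strand) was at 10.2 CPM in E420, 8.67 in E434 and 8.41 in E435, and at 5.27 CPM in mutant E423, 5.03 in E433 and 7.09 in E440. The groups did not overlap, and E440 lay nearest to the controls. Its log2 fold change was -0.65 ± 0.175 (SE), 36.1% lower, with an adjusted p-value of 0.370 in edgeR and 0.0441 in DESeq2, under the limit of size in both. It was -0.57 without E434 and E433, -0.85 without E423 and E440, and between -0.82 and -0.55 when each library was left out in turn. RSEM assigned Tnfrsf11a a mean transcript length of 3802 to 4433 bases in controls and 4105 to 4595 bases in mutants, beside 5027 bases for its protein-coding transcript and 611 and 1041 bases for its retained-intron transcripts. These lengths overlapped, so no difference between the groups in the mixture of transcripts was seen.

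M-CSF was the most evenly measured of the ligands. Csf1 (ENSMUSG00000014599.10, chr3:107741048-107760469, minus strand) was at 39.1 CPM in E420, 46.8 in E434 and 41.3 in E435, and at 34.4 CPM in mutant E423, 34.8 in E433 and 32.9 in E440. The mutants differed from each other by less than 2 CPM and all lay below the lowest control. On the log2 scale this was a change of -0.32 ± 0.0912 (SE), 19.7% lower, with an edgeR adjusted p-value of 0.384 and a DESeq2 one of 0.161. Its value without E434 and E433 was -0.26, without E423 and E440 -0.29, and with the keratinocyte level as a covariate -0.21.

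Interleukin-34, the other ligand of the M-CSF receptor, which is known as the main one in skin, was higher, but in only some of the mutants. Il34 (ENSMUSG00000031750.15, chr8:110741829-110805924, minus strand, 10.31 Mb from Foxc2) was at 1.93 CPM in E420, 0.882 in E434 and 2.62 in E435, and at 10.2 CPM in mutant E423, 1.88 in E433 and 9.69 in E440. E423 and E440 were several times above every control, and E433 lay within the controls. As a log2 fold change the difference was 2.0 ± 0.685 (SE), with an adjusted p-value of 0.421 in edgeR and 0.0246 in DESeq2. Without E423 and E440 it was 0.05, without mutant E433 it was 2.46 with an adjusted p-value of 0.0345, and without E434 and E433 it was 2.11 with one of 2.77e-10, a comparison of 2 close pairs of libraries.

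Il34 was high in the libraries in which skin transcripts were high. The mean log2 CPM of the keratinocyte list was 9.30 in E423, 9.26 in E440, 6.65 in E420, 6.63 in E435, 5.73 in E433 and -0.54 in E434, an order that Il34 followed except that E435 and E420 changed places. With the keratinocyte level as a covariate the log2 fold change of Il34 was 0.83 (edgeR, adjusted p-value 0.614), and with the early chondrocyte level it was 1.11 (0.151). The keratin genes Krt10 and Krt1 were at 11908 and 10188 CPM in E423 and at 6.46 and 1.13 CPM in E434. On the log2 scale, Il34 set against the keratinocyte list differed between mutants and controls by -2.08, with the control value of E434 far above all others (exact permutation test, 2-sided, p = 0.5). Adipocyte transcripts were also higher in each mutant, with a summed level of 606, 210 and 628 CPM in E423, E433 and E440 against 138 to 156 CPM in controls, and their part in the level of Il34 was not tested. Strand was not used in the counting, and Gm15894 and Gm15895 are annotated within or across Il34. Reads from any exon they share with it cannot be told apart by strand, and whether exons are shared was not examined. With RSEM expected counts the log2 fold change of Il34 was 2.06.

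The balance of both Csf1r ligands differed between libraries accordingly. Per kilobase, Csf1 exceeded Il34 in all 6 libraries, by 7.51, 19.7 and 5.85 times in controls E420, E434 and E435 and by 1.25, 6.86 and 1.26 times in mutants E423, E433 and E440. In mutants E423 and E440 the ligands were near parity, whereas E433 was at a value between those of the controls. The difference was -2.11 on the log2 scale, with p = 0.2 in the exact permutation test (2-sided) and 0.45 after adjustment.

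The M-CSF receptor was the most abundant of the 6 transcripts and was slightly lower in each mutant. Csf1r (ENSMUSG00000024621.16, chr18:61100598-61132149, plus strand) was at 62.4 CPM in E420, 70.7 in E434 and 62.4 in E435, and at 56.9 CPM in mutant E423, 50.2 in E433 and 54.5 in E440. This gave a log2 fold change of -0.28 ± 0.0875 (SE), 17.4% lower, with an edgeR adjusted p-value of 0.407 and a DESeq2 one of 0.247. It was -0.16 without E434 and E433 and -0.38 without E423 and E440. The annotated span of Hmgxb3 overlaps that of Csf1r, so reads from any shared exon are uncertain for the same reason as at Il34. With RSEM expected counts the log2 fold change of Csf1r was -0.24.

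Each gene was then set beside markers of cells known to make it. The osteoblast and osteocyte list was lower as a whole, with 12 of 13 genes lower in every mutant than in every control, where 8.21% of all genes were. Its median log2 fold change was -1.32, with Spp1, which encodes osteopontin, at -2.38 and Ibsp, bone sialoprotein, at -0.92. Tnfsf11 relative to this list differed by only -0.32 on the log2 scale in mutants, with overlapping groups (exact permutation test, 2-sided, p = 0.3). Csf1 relative to it was 1.14 higher, the groups apart (p = 0.1, the smallest possible in this exact test), and Tnfrsf11b was 1.08 higher with overlap (p = 0.2, exact). After adjustment over the 9 tests none of these was below 0.45. RANKL thus differed between groups by about as much as the bone-forming cell markers did, and M-CSF by less, with the part of these cells in either result not tested. The hypertrophic chondrocyte list was lower too, with 3 of 5 genes lower in every mutant, where 8.21% of all genes were. Its median log2 fold change was -1.51, and its summed level 462 to 997 CPM in controls and 220 to 248 CPM in mutants. Tnfsf11 was not set against that list, so these values do not tie RANKL to one of these cell types.

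**Figure D3:**
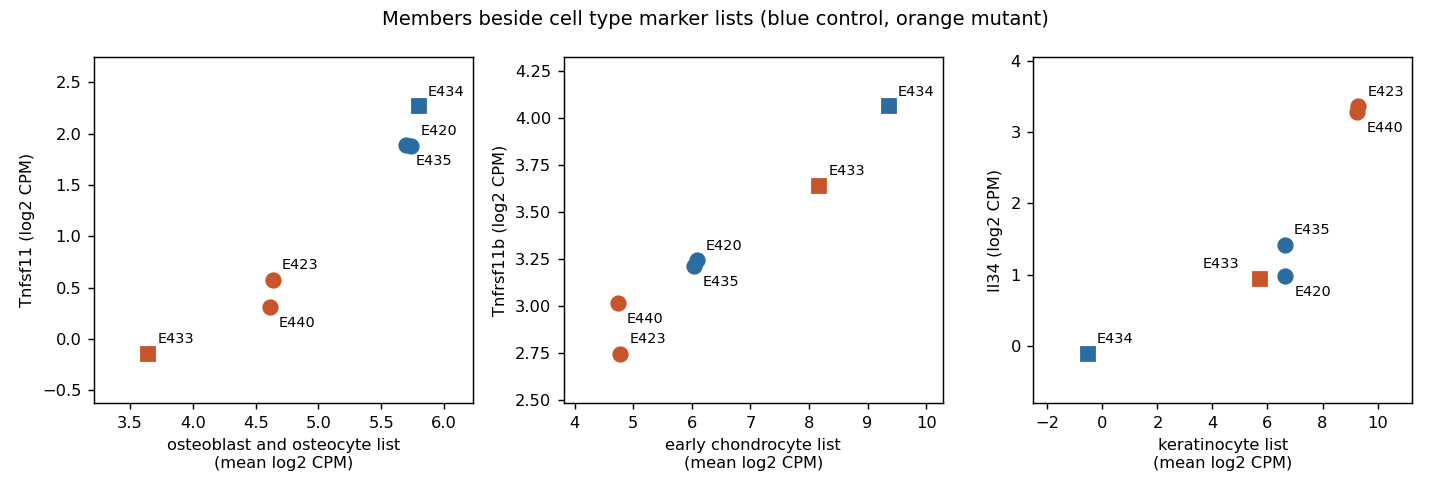
Level of a gene (y axis, log2 CPM) against the mean level of a marker list (x axis, mean log2 CPM) in the 6 libraries: Tnfsf11 with the osteoblast and osteocyte list, Tnfrsf11b with the early chondrocyte list and Il34 with the keratinocyte list. Tnfsf11 splits by genotype along its list, whereas for Tnfrsf11b the cartilage-rich E434 and E433 (squares) are highest, and for Il34 the skin-rich E423 and E440 are.

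On the side of the responding cells, all 9 osteoclast genes were lower in every mutant than in every control, where 8.21% of all genes were. Their median log2 fold change was -1.10. Only 1 of them, Ctsk, was called by edgeR (log2 fold change -1.26, adjusted p-value 0.0999), which called 0.0639% of all genes. DESeq2 likewise called Ctsk alone among the 9, where it called 0.557% of genes as lower. Their summed level was 656 to 672 CPM in controls, 338 in E423, 332 in E440 and 152 in E433. E433 had the lowest Tnfsf11 and the lowest ratio of ligand to decoy. It also had the lowest mean level of the osteoblast and osteocyte list, 3.64 log2 CPM against 4.64 in E423 and 4.61 in E440. How these levels relate to the osteoclast genes was not tested. In E433, Mmp9 was at 18.9 CPM and Acp5, tartrate-resistant acid phosphatase, at 9.44 CPM, whereas in the other mutants they were at 112 to 120 and 66.9 to 69.5 CPM. Acp5 in those mutants was close to the controls, at 70.9 to 82.0 CPM. Ctsk did not follow this order, at 84.0 CPM in E423, 86.8 in E433 and 87.7 in E440.

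Tnfrsf11a did not follow the osteoclast list in E433. There it was 0.65 above the list's mean on the log2 scale, whereas in the other 5 libraries it was 0.93 to 1.38 below it. The difference between groups was 0.67 (p = 0.4, exact permutation test, 2-sided), and without E433 it was 0.07. The macrophage list separated the groups less, with 1 of 12 genes lower and 1 higher in every mutant, where 8.21% and 6.81% of all genes were. It had a median log2 fold change of -0.28 and a summed level of 303 to 319 CPM in controls and 237 to 308 CPM in mutants. Csf1r against this list differed by -0.03 (p = 1, exact), and Tnfrsf11a against it by -0.41 (p = 0.3, exact), both with overlap. T cells, another source of RANKL, were barely seen, with 8 marker genes summing to 2.87 to 3.03 CPM in controls and 3.66 to 5.36 CPM in mutants.

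Around these ligands and receptors, 8 lists of pathway genes held 119 genes, of which 113 could be tested. None was called by edgeR, where 0.0639% of all genes were, and DESeq2 called 1 lower and 1 higher, where it called 0.557% and 1.62%. An unadjusted edgeR p-value under 0.05 was reached by 20 (13 lower and 7 higher, where 4.7% and 5.9% of all genes were). Of the 113 genes, 17 were lower in every mutant and 9 higher, where 8.21% and 6.81% of all genes were. The median log2 fold change was -0.03, beside 0.01 over all genes.

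The list of factors that raise Tnfsf11 in osteoblasts and their receptors had 6 of 19 genes lower and 1 higher in every mutant (8.21% and 6.81% of all genes), with a median of -0.15. The 6 include Lgr4, at -0.36, named here because it encodes a receptor of RANKL itself. The vitamin D receptor gene Vdr was the gene DESeq2 called lower. The controls E420, E434 and E435 were at 17.6, 22.7 and 19.8 CPM, and the mutants E423, E433 and E440 at 8.61, 4.76 and 8.80 CPM, with a log2 fold change of -1.44 ± 0.254 (SE) with an adjusted p-value of 0.202 in edgeR and 5.28e-06 in DESeq2. Its lowest library was E433, as for Tnfsf11. Ptgs2, which encodes the cyclooxygenase that makes prostaglandins, had a log2 fold change of -0.89, Pth1r, the parathyroid hormone receptor, of -0.46 and Lifr, the leukaemia inhibitory factor receptor, of -0.31, each with separate groups and an edgeR adjusted p-value of 0.376 or more. Tnfrsf1a, a TNF receptor and the highest of the list per kilobase, overlapped at 84.2 to 93.6 CPM in controls and 82.9 to 104 CPM in mutants.

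Downstream of RANK, the genes for the signalling machinery showed no common direction, and no lineage factor gene was called by edgeR. Of 22 RANK signal transduction genes, 2 were lower and 2 higher in every mutant, where 8.21% and 6.81% of all genes were. These differed by small steps: Src, a kinase needed for the resorbing surface, had the largest log2 fold change of these at -0.35 (edgeR adjusted p-value 0.373), Relb -0.12, Map3k14 0.13 and Ikbkg 0.10. The median of the list was -0.03, and its log2 fold changes ran from -0.35 to 0.36. These are levels over all cells of the sample, and levels within osteoclasts were not measured. Akt1 and Sqstm1, its most abundant genes per kilobase, overlapped at -0.09 and -0.05. Of 10 osteoclast transcription factor genes, 3 were lower in every mutant, where 8.21% of all genes were. They were Nfatc1, the master factor induced by RANKL, at -0.48, Spi1 (PU.1) at -0.62 and Jdp2 at -0.45, with edgeR adjusted p-values of 0.385 to 0.418. The median of that list was 0.26, which turned to -0.36 without E423 and E440 and to -0.19 with the keratinocyte covariate, and the single gene of it that DESeq2 called, Prdm1, named here after its values were seen, was higher in mutants (log2 fold change 1.90, with overlapping groups).

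The co-stimulatory ITAM genes, which act together with RANK, had 4 of 8 genes lower in every mutant, where 8.21% of all genes were, and a median of -0.19. Plcg2, a phospholipase that raises calcium, was at 9.42 to 12.3 CPM in controls, and mutants E423, E433 and E440 lay at 5.60, 7.31 and 5.46 CPM. This came to a log2 fold change of -0.77 (adjusted p-value 0.324 in edgeR and 0.0101 in DESeq2). Oscar, a collagen receptor of osteoclasts that also stands in the osteoclast list, had a log2 fold change of -1.10 and was lowest in E433, at 0.116 CPM. Trem2 and Syk were at -0.31 and -0.20, while the adaptor genes Tyrobp and Fcer1g overlapped.

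The next list held genes that act with Csf1r and genes for other receptors of interleukin-34. Of its 11 genes, 0 were lower in every mutant and 1 was higher, where 8.21% and 6.81% of all genes were. The higher gene was Pik3r1, a regulatory subunit of PI 3-kinase, at 0.23. The median was 0.00 and Grb2 and Sdc1, the most abundant per kilobase, overlapped. The related receptor kinases and colony-stimulating factor genes had 3 of 9 genes higher and 0 lower in every mutant, where 6.81% and 8.21% of all genes were. Their median was 0.25, which turned to -0.29 without mutant E433. The 3 genes were Kit at 0.78, its ligand Kitl at 0.36, and Csf2rb, the shared receptor chain for GM-CSF, at 0.56, with edgeR adjusted p-values of 0.389, 0.389 and 0.235 and DESeq2 adjusted p-values of 0.0332, 0.0975 and 0.00138.

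The other members of the TNF family set the difference in Tnfsf11 in context. Of 17 other TNF ligand genes, 13 could be tested. Of these, 0 were lower and 0 higher in every mutant, where 8.21% and 6.81% of all genes were. Cd40lg and Fasl were at 0 in all 6 libraries, and the log2 fold changes ran from -0.54 to 0.68. Of 23 other TNF receptor genes, 2 were lower and 2 higher in every mutant, again beside 8.21% and 6.81% of all genes. Cd40 at -0.98 (adjusted p-value 0.344 in edgeR and 0.0291 in DESeq2) and Ltbr at -0.26 were lower, and Tnfrsf18 at 0.93 and Tnfrsf25 at 0.40 were higher. The log2 fold change of Tnfsf11, -1.78, thus lay outside the range of the other ligands tested. Their mean level was low, at -0.77 to -0.56 log2 CPM in controls against 1.88 to 2.27 for Tnfsf11, so this range is a loose comparison.

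**Figure D4:**
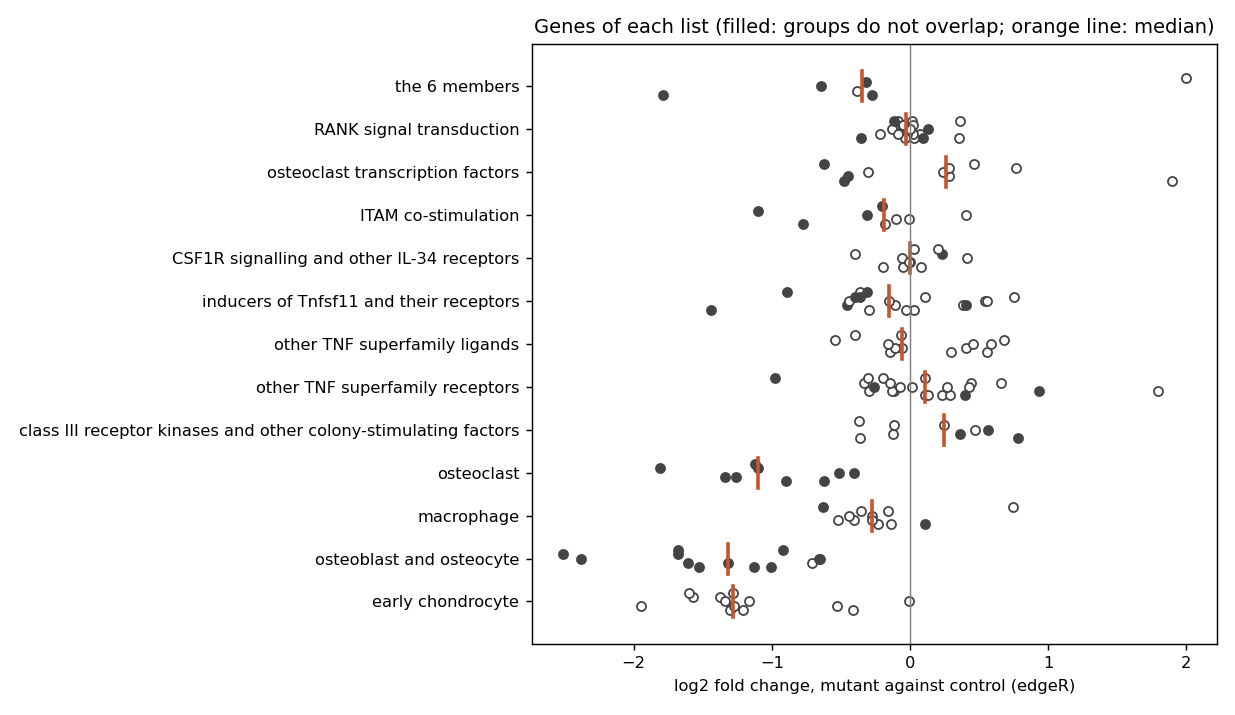
Log2 fold change of mutants against controls (x axis, edgeR) for the 6 genes, the 8 pathway lists and 4 marker lists (y axis); each point is a gene, filled where the groups do not overlap, and the orange line is the median. The pathway medians lie between -0.19 and 0.26, those of the osteoclast, osteoblast and early chondrocyte markers at -1.10, -1.32 and -1.28.

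The 6 genes did not vary as one. Over the 6 libraries, Tnfsf11 was most like Csf1r and Csf1 in log2 CPM (Pearson r = 0.961 and 0.905), Tnfrsf11a was less close to Tnfsf11 (0.863), and Tnfrsf11b was loosely related to it (0.370). Il34 ran against Tnfrsf11b (-0.902) and Csf1 (-0.803). These coefficients describe 6 libraries that fall into 2 genotypes and share depth and tissue makeup between genes.

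Among 13014 genes with a mean of at least 5 CPM, the patterns most like Tnfsf11 were those of Plcd1 (r = 0.997), Ppm1e and Cd200 (both 0.996), with log2 fold changes of -0.36, -0.95 and -0.92. For Tnfrsf11b they were Tmed9, Clec3a and Uxs1 (0.994, 0.994 and 0.993), of which Clec3a is a cartilage lectin gene. For Tnfrsf11a they were Tcirg1, a subunit of the osteoclast proton pump (0.985), and Gm20075 (0.983). For Csf1 they were Plvap, Serpinf1 and Kera (0.996, 0.993 and 0.992). For Il34 they were 1700037H04Rik, Rpia and Txndc9 (0.999, 0.998 and 0.997), and for Csf1r they were Ssr4, Jam2 and Tpd52l1 (0.995, 0.993 and 0.989).

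Genes beside the 6 loci were not called. Within 500 kb, between 5 and 34 neighbours of each gene could be tested, and edgeR called 0 of them, where 0.0639% of all genes were called. In all, 10 had an unadjusted edgeR p-value under 0.05, where 10.6% of all genes did. These were 1 of 5 for Tnfsf11, 0 of 6 for Tnfrsf11b, 0 of 14 for Tnfrsf11a, 3 of 34 for Csf1, 2 of 19 for Il34 and 4 of 19 for Csf1r. The nearest tested genes on both sides of Tnfsf11, Epsti1 and the pseudogene Gm4821, had log2 fold changes of -0.18 and -0.13. Mtss1l, 0.429 kb from Il34, was at -0.18 and Sf3b3, 4.32 kb away on its other side, at -0.06, beside 2.0 for Il34 itself. Over all 19 tested neighbours of Il34 the log2 fold changes ran from -0.32 to 4.94. They ran from -1.77 to 1.75 around Tnfrsf11a and from -1.17 to 1.78 around Csf1. Pdgfrb, 15.5 kb from Csf1r, was at -0.37 with overlapping groups.

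**Figure D5:**
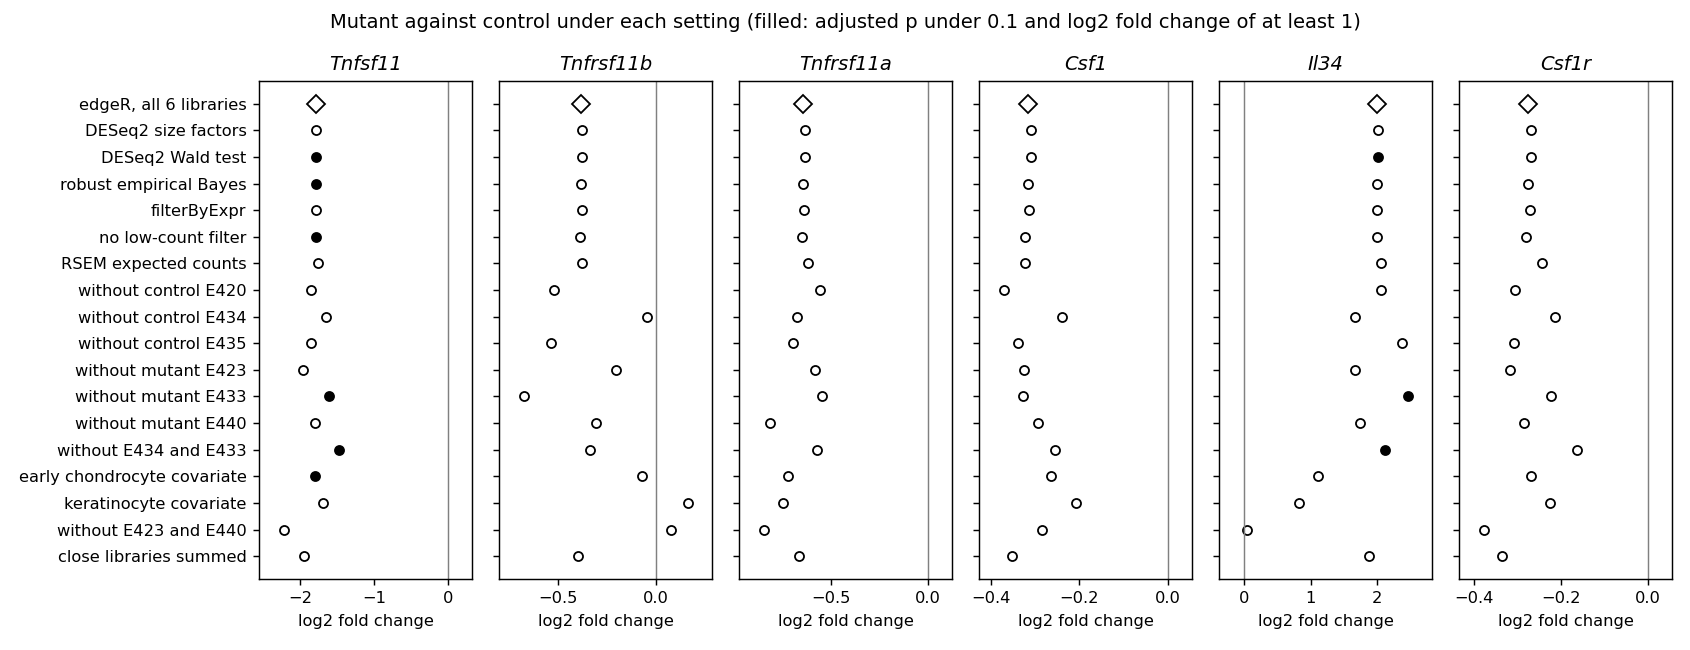
Log2 fold change of each of the 6 genes (x axes, which differ in range) under each test, filter, covariate or set of libraries (y axis); the diamond is the value of edgeR with all libraries, and filled points passed both limits. Tnfsf11 lies between -2.22 and -1.47 and Il34 between 0.05 and 2.46, while Tnfrsf11b crosses 0.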

How the data were processed

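RNA-Seq of 6 rib cage libraries was analysed, with groups taken from the genotype labels. The authors aligned reads to GRCm38 with HISAT2 2.1.0, and the deposited counts for each gene were made by featureCounts 1.6.0 on the exons of GENCODE release M25, without normalization. Per its header each end of a pair was counted, strand was not used, and totals were 1.95 to 1.96 times those of the expected counts (per fragment) and TPM that the authors deposited per library from STAR 2.7.6 and RSEM 1.2.31. No line lacked a gene ID. The tables of the authors' own comparisons hold fold changes and p-values and were not used, nor were 12 columns of per-sample values in them. Of 55487 gene IDs, 55141 had a symbol in an older GENCODE release of the same build.

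Genes with at least 10 summed counts were scaled by TMM, and edgeR 4.0.16 (R 4.3.3; glmQLFit, glmQLFTest) was used with Benjamini-Hochberg adjustment. Called means an adjusted p-value under 0.1 with a log2 fold change of 1 or more either way. DESeq2 1.42.0 was an alternative. Standard errors were derived from the edgeR F statistic. Log2 CPM used a prior count of 2. Ratios were counts per kilobase of exon, tested by exact permutation in scipy 1.17.1. At this depth 1 count equals 0.0209 to 0.0264 CPM before TMM scaling. The steps were tested on simulated counts. Intervals and tests without molecular identifiers cannot separate amplified copies.

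The 6 genes and all lists were chosen with earlier results of these data known. Genes named are the targeted genes, the 6 genes, the up to 4 genes of a pathway list with the smallest edgeR p-value among those with separate groups, its 2 highest per kilobase, up to 3 highest of a marker list, the 3 closest patterns and the nearest neighbours; 2 genes that this rule names are not reported here. Alternatives were other scaling, filters, tests and limits, RSEM expected counts, covariates and leaving out libraries. Leaving out E423 with E440, and summing close libraries, were added after the values were seen.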

Additional observations from a re-analysis of the deposited data

How the results depend on the processing

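The number of genes called by edgeR, 17, was 477 with DESeq2, 35 with the robust empirical Bayes step, 37 without a low-count filter, 10 with RSEM expected counts, 244 with the early chondrocyte and 61 with the keratinocyte covariate, 2066 without E434 and E433, 18 without E423 and E440, 0 with close libraries summed, and 0 and 0 at adjusted p-value limits of 0.05 and 0.01. Leaving out each library gave 0 to 1087, the 1087 without mutant E433. Tnfsf11 passed both limits with DESeq2 (-1.78), the robust step (-1.78), no filter (-1.79), without E434 and E433 (-1.47) and with the early chondrocyte covariate (-1.80), and ran from -1.97 to -1.60 leaving out each library, passing without mutant E433 (-1.60). Il34 passed with DESeq2 (2.01) and without E434 and E433 (2.11), and ran from 1.67 to 2.46, passing without mutant E433 (2.46). Tnfrsf11b reversed to 0.16 with the keratinocyte covariate and to 0.0764 without E423 and E440, and ran from -0.67 to -0.04. Csf1r against the macrophage list, -0.03, reversed to 0.16 without E434 and E433, and ran from -0.13 to 0.12 leaving out each library, turning positive without control E434 or mutant E433. The causes were not tested, except that fits on 4 libraries have fewer samples and that E420 with E435 and E423 with E440 are close to each other, so the spread left without E434 and E433 is small. With each close pair summed, the log2 fold change was -1.95 for Tnfsf11 and 1.88 for Il34, both with an edgeR adjusted p-value of 0.9998. Tnfrsf11a, Csf1 and Csf1r kept their direction and stayed within a log2 fold change of 1 in each setting. No paired analysis was possible because the labels name embryos by numbers that the groups do not share, give no replicate numbers and do not say which embryos were littermates.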
